A study of Saccharomyces cerevisiae with 236 samples.

Results

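Growth without adenine was compared with growth in synthetic complete (SC) medium in 3 pooled collections of *Saccharomyces cerevisiae* deletion strains. The arrays labelled as adenine dropout (ADE–) were set against the SC arrays of the same collection, each collection by itself, which took 20 of the 236 arrays of the series. There were 3 ADE– arrays for each collection, 4 SC arrays for YKO, 4 for PB and 3 for BC. A further 2 BC arrays, whose title and growth protocol name different media, were left out. All strains were followed rather than a chosen subset: the arrays carry tags for 5179 deletion strains of 4993 genes.

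Each strain lacks 1 gene and carries short DNA barcodes, an uptag and usually also a downtag, whose signal on the array follows the share of the strain in the pool. The YKO collection is a homozygous diploid set in BY4743 (*MATa/α*), with both copies of *HIS3*, *LEU2* and *URA3* inactive (*his3Δ1*, *leu2Δ0*, *ura3Δ0*) and 1 working copy each of *LYS2* and *MET17* (*LYS2/lys2Δ0* and *met17Δ0/MET17*). The PB collection is a haploid *MATa* set in BY4741 (*his3Δ1 leu2Δ0 met17Δ0 ura3Δ0*) in which a plasmid, pHLUM, supplies the missing markers. The BC collection is a haploid *MATa* set (*can1Δ::STE2pr-SpHIS5 his3Δ1 lyp1Δ0*) obtained by crossing to a strain with repaired markers and selecting progeny able to grow on minimal medium, which holds no adenine. No strain background here carries a deletion in adenine synthesis other than the gene its strain was made for. Pools were grown for 5 generations in either medium. A strain that divided more slowly and a strain that died cannot be told apart by tag signal, and every value is relative to the rest of the pool.

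Yeast makes adenine nucleotides from phosphoribosyl pyrophosphate through a chain of *ADE* gene products that ends in inosine monophosphate, from which separate branches lead to AMP and GMP. When adenine is in the medium it is taken up and salvaged, and the pathway is turned down. The transcription factors Bas1 and Pho2 switch the *ADE* genes on together when adenine runs short, and Bas1 and Pho2 also act on histidine and one-carbon genes. Steps of the pathway use glycine and formyl groups carried on folate, and serine can supply both.

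The fitness defect (FD) score is the SC median minus the ADE– value of a tag, in log2 units, given as the median over the ADE– arrays with the standard deviation (SD) over those arrays. A positive score is a lower signal without adenine. A strain was tested where at least 1 of its tags lay above the background of its collection in every SC array, and was called at an FD score of at least 1 with an adjusted *p* under 0.05 (limma, Benjamini–Hochberg over all strains tested). The background thresholds were 7.40 (YKO), 7.98 (PB) and 7.35 (BC) on the log2 scale. They left 4363 strains to test in YKO, 4116 in PB and 4001 in BC.

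Few strains responded, and those that did belong to purine synthesis, its activators and the serine and one-carbon supply. In YKO, 7 strains had a fitness defect, 0.16% of those tested. In PB there were 5 (0.121%) and in BC 3 (0.075%). These 15 calls fall on 10 genes, and all 10 are on the gene lists used here, which were drawn up with earlier results of these data known. The presence rule was also chosen knowing that requiring every tag of a strain removes most purine strains. That stricter rule gave fewer calls in each collection. The *BAS1* strain was called in all 3 collections, the *SHM2*, *SER2* and *PHO2* strains in 2 each, and the other 6 in 1 collection. The SC and ADE– arrays did not overlap for any of the called strains. Those strains were selected on these same arrays, so the separation adds no support to the calls. The BC calls were the least firm. With the SC and ADE– arrays alone in the fit none of the 3 passed (adjusted *p* = 0.051 for *BAS1*, 0.083 for *PHO2* and 1.0 for *SHM2*), and without ADE– array 1 or SC array 3 only *BAS1* did. The median score over all tested strains was 0.01 in YKO, −0.02 in PB and −0.06 in BC. In BC 9 other strains scored 1 or more without passing the test, against 3 in YKO and 0 in PB.

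**Figure D1:**
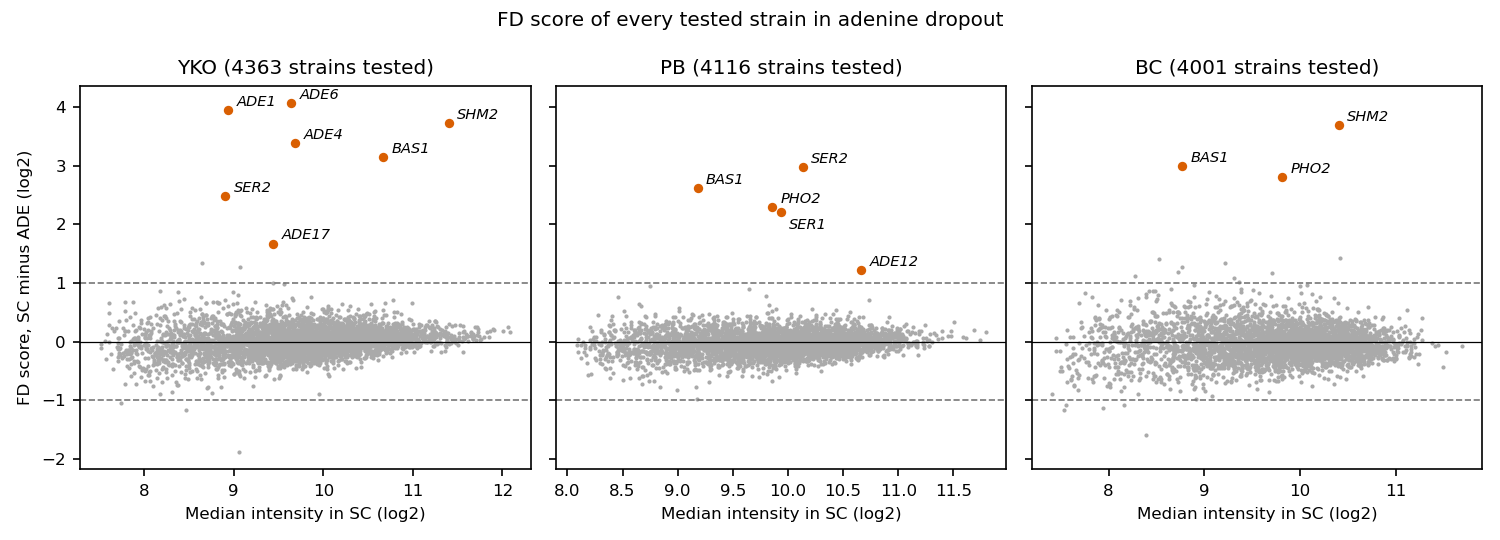
FD score (SC median minus ADE–, log2, vertical axis) of every tested strain against its median SC intensity (log2, horizontal axis) in YKO, PB and BC. Orange points are the called strains, grey points all others, and dashed lines mark scores of 1 and −1. The called strains stand above a band centred near 0, with the highest at 4.06 in YKO, 2.98 in PB and 3.70 in BC.

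The highest scores in YKO on the tested tags were those of the *ADE6* and *ADE1* strains, followed by *SHM2*. This order depends on the tag chosen. On their other tags, also above background, the *SHM2* strain scored 4.77 (downtag) and the *ADE6* strain 2.85 (uptag). Of the 9 genes listed for *de novo* synthesis up to inosine monophosphate, 8 have a strain on the arrays and 5 could be tested in YKO, of which 4 were called. The *ADE6* strain lacks the enzyme that turns formylglycinamide ribotide into its amidine. Its downtag read 9.21, 9.48, 9.80 and 10.16 in the SC arrays and 5.58, 6.56 and 5.56 in the ADE– arrays. All 3 ADE– values lay below the presence threshold of 7.40, and the score was 4.06 ± 0.57 (SD, n = 3, adjusted *p* = 9.7e-11), a 16.7-fold drop in signal. The *ADE1* strain lacks the synthetase that joins aspartate to the aminoimidazole carboxylate. Its uptag read 9.02, 8.29, 9.14 and 8.85 in SC and 4.75, 6.03 and 4.99 in ADE–. All 3 ADE– arrays were more than 2 log2 units below the lowest SC array, with a score of 3.95 ± 0.68 (SD, n = 3, adjusted *p* = 6.3e-07).

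The *ADE4* strain lacks the amidotransferase of the first committed step. Its downtag read 9.52, 8.73, 10.19 and 9.86 in SC and 6.30, 5.66 and 7.10 in ADE–. The score was 3.39 ± 0.72 (SD, n = 3, adjusted *p* = 1.4e-07), and without SC array 1 the rule chose the uptag, with a score of 3.13 and an adjusted *p* of 0.98. *ADE16* and *ADE17* encode isozymes of the last steps, the transformylase and cyclohydrolase that yield inosine monophosphate, and the 2 strains differed. The *ADE17* strain fell in YKO from 9.42, 9.01, 9.54 and 9.46 in SC to 8.08, 7.77 and 7.50 in ADE–, a score of 1.67 ± 0.29 (SD, n = 3, adjusted *p* = 0.00012), and without SC array 1 the score was 1.08 (adjusted *p* = 0.31). The *ADE16* strain read 9.45, 8.95, 8.41 and 8.34 in SC and 9.35, 8.26 and 8.56 in ADE–. Its arrays overlapped, with a score of 0.13 in YKO, −0.26 in PB and −0.13 in BC and no call.

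The *ADE17* strain lay lower without adenine in the other collections too, on both of its tags, but was not called in either. Its score was 0.56 ± 0.41 in PB (SD, n = 3, adjusted *p* = 0.047, short of the score of 1) and 0.82 ± 0.29 in BC (SD, n = 3, adjusted *p* = 0.49). The PB uptag read 10.13, 10.14, 10.30 and 10.45 in SC and 9.71, 8.98 and 9.66 in ADE–. The BC uptag read 10.12, 10.02 and 10.44 in SC and 9.31, 9.65 and 9.08 in ADE–. In both collections every ADE– array was below every SC array.

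**Figure D2:**
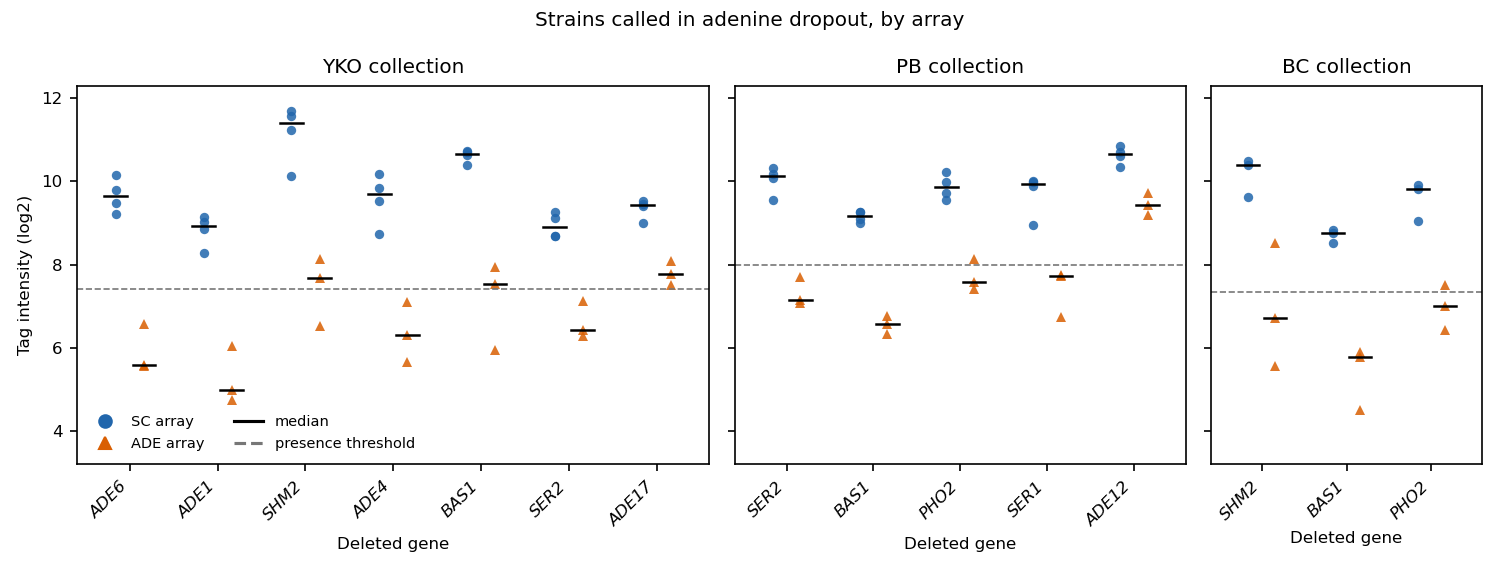
Tag intensity (log2, vertical axis) of each called strain in every SC array (blue circles) and ADE– array (orange triangles), by collection and in order of score. Black bars are medians and the dashed line is the presence threshold of the collection. No ADE– point reaches an SC point of the same strain, and the *ADE12* strain of PB alone keeps all its ADE– arrays above the threshold by more than 1 log2 unit.

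In PB and BC most strains of the pathway were not above background in SC, so they had no test. In PB only the *ADE16* and *ADE17* strains passed, and in BC those and *ADE4*. The tags of the untested PB strains were nevertheless not flat. The *ADE1* uptag read 8.06, 6.34, 7.79 and 7.41 in the PB SC arrays and 5.84, 6.32 and 4.81 in ADE–. The *ADE4* downtag read 7.63, 6.54, 8.65 and 8.03 in SC and 5.22, 5.97 and 6.43 in ADE–, and the *ADE6* downtag 7.47, 7.63, 7.37 and 8.10 in SC and 5.15, 6.98 and 5.78 in ADE–. Each of these 3 tags was lower in all 3 ADE– arrays than in any SC array, from SC levels close to the threshold of 7.98.

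*ADE2* encodes the carboxylase whose loss turns colonies red, and its strain passed in no collection. Its PB downtag read 7.58, 8.72, 10.28 and 10.45 in SC and 5.34, 6.02 and 8.31 in ADE–. SC array 1 kept it from the test, being under the threshold, and the highest ADE– array, number 3, exceeded that SC array. In YKO the same downtag read 5.42 to 7.39 in SC and 5.28 to 6.96 in ADE–. *ADE8*, the first formyl transfer of the pathway, gave an uptag in YKO of 7.70, 6.82, 6.81 and 7.40 in SC and 4.40, 5.93 and 4.78 in ADE–. Of *ADE5,7*, a bifunctional enzyme with 2 strains on the array, the downtag of 1 strain read 4.95, 7.27, 8.13 and 10.25 in the PB SC arrays and 4.91, 6.41 and 6.09 in ADE–, so its SC arrays spanned more than 5 log2 units. These values carry no test.

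BC differed from YKO in the *ADE4* strain. The BC downtag of this strain read 7.99, 8.17 and 8.43 in SC and 8.86, 8.14 and 8.24 in ADE–, just above the threshold of 7.35. The arrays overlapped, with a score of −0.08 ± 0.39 (SD, n = 3), while its uptag read 4.59, 6.15 and 6.72 in SC, below the threshold. The difference between the YKO and BC scores on the downtag was 3.44 (95% interval 2.35 to 4.54, adjusted *p* = 0.00021), the only one of 3589 strains shared by those collections to pass (0.0279%). Whether the BC tag belongs to an *ADE4* deletion was not tested. The *ADE8* downtag of BC was likewise near the threshold, at 8.20, 6.57 and 7.72 in SC and 7.99, 8.20 and 6.57 in ADE–. Its arrays overlapped.

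**Figure D3:**
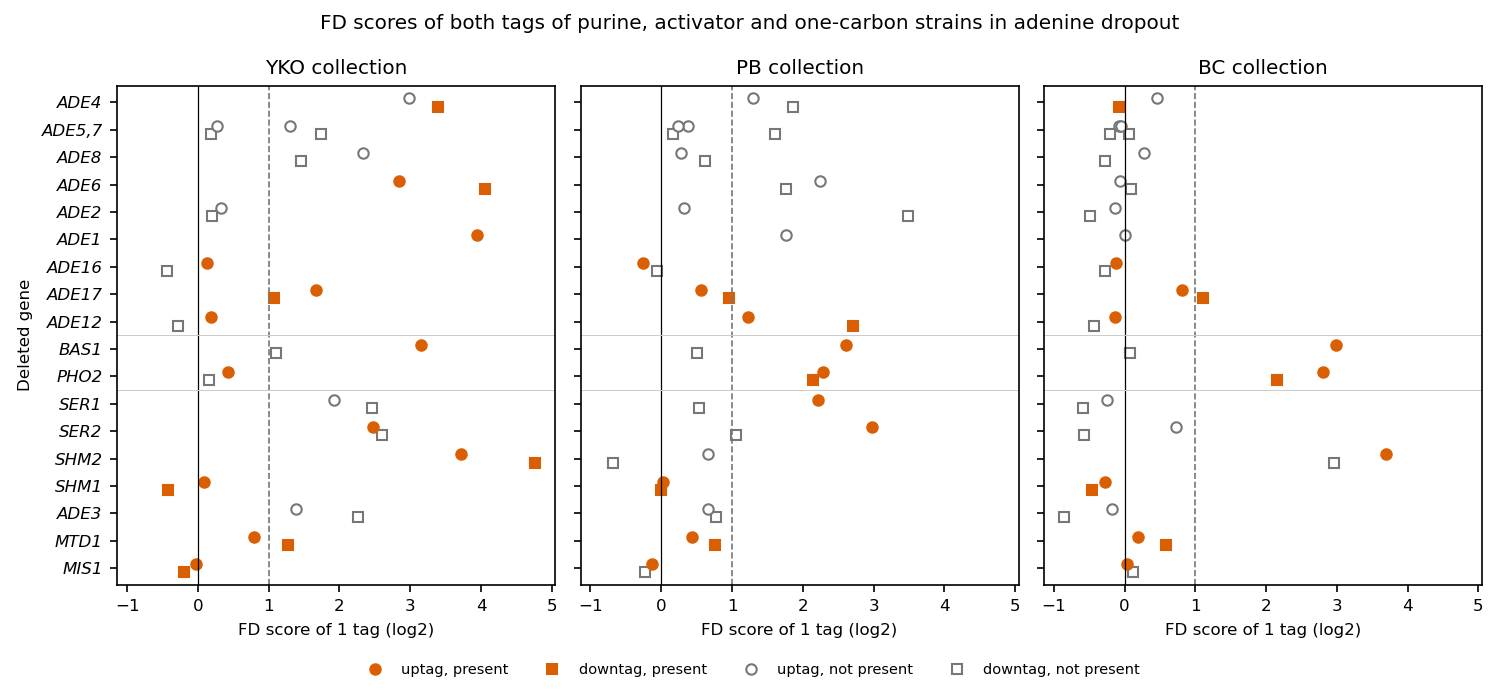
FD score (log2, horizontal axis) of each tag of the strains named on the vertical axis, in YKO, PB and BC. Circles are uptags and squares downtags, filled where the tag was above background in every SC array and open where it was not, and the dashed line marks a score of 1. *ADE5,7* has 2 strains, and in BC the filled points beyond 2 are those of *BAS1*, *PHO2* and *SHM2*.

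The branch from inosine monophosphate to AMP gave a call in PB. *ADE12* encodes adenylosuccinate synthase, the first step of that branch. Its PB uptag read 10.72, 10.60, 10.34 and 10.85 in SC and 9.72, 9.43 and 9.20 in ADE–, a score of 1.23 ± 0.26 (SD, n = 3, adjusted *p* = 0.00032) that was not called with the SC and ADE– arrays alone in the fit (adjusted *p* = 0.062). Its PB downtag had a median of 9.91 in SC and 7.21 in ADE–, with an SD of 1.19 over the ADE– arrays. The YKO uptag read 9.62, 9.41, 9.44 and 10.25 in SC and 9.35, 9.31 and 9.34 in ADE–, and the BC uptag 9.59, 9.18 and 9.71 in SC and 9.73, 9.83 and 9.41 in ADE–. Their scores were 0.19 and −0.14. The YKO minus PB difference on fitted means was −0.83 (95% interval −1.37 to −0.29, adjusted *p* = 1.0) and, with the replicate number as a block, −0.95 (adjusted *p* = 0.036). PB exceeded BC by 1.34 (95% interval 0.74 to 1.95, adjusted *p* = 0.15).

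The *ADE12* downtag stood apart in the arrays numbered 3. In BC it read 9.08 and 8.68 in SC array 3 and ADE– array 3, against 5.28 to 5.95 in the other 4 arrays, and in YKO 6.78 and 8.05 against 4.84 to 5.71. The *SHM2* downtag of PB, near background elsewhere, likewise read 8.29 and 7.23 in SC array 3 and ADE– array 3. Without the arrays numbered 3, a choice made after the values were seen, the *SER2* call in YKO (adjusted *p* = 0.50) and the *PHO2* call in BC were lost.

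Other genes of the branches were not called. Of 9 genes listed for the AMP and GMP branches, 5 could be tested in YKO, 5 in PB and 4 in BC, and *ADE12* in PB was the one call. *AMD1* encodes AMP deaminase, which returns AMP to inosine monophosphate, and its YKO strain moved the other way. Its uptag read 8.53, 8.39, 8.35 and 8.71 in SC and 9.41, 9.63 and 9.78 in ADE–. The score was −1.16 ± 0.18 (SD, n = 3) with a limma adjusted *p* of 0.35. The adjusted *p* was 0.033 with the SC and ADE– arrays alone, and 0.0095 with the replicate number as a block (fitted mean −1.18). The downtag of this strain, partly under the threshold, read 7.26 to 8.14 in SC and 8.27 to 9.24 in ADE–. In PB both *AMD1* strains scored below 0, at −0.59 and −0.48, and in BC the tested one scored 0.05, none of them called.

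Of the activators, *BAS1* was called in all 3 collections and *PHO2* in PB and BC. *BAS1*, the Myb-type factor that binds *ADE* promoters, was tested on its uptag in each collection. In YKO it read 10.40, 10.71, 10.64 and 10.74 in SC and 7.52, 7.94 and 5.93 in ADE–, a score of 3.15 ± 1.06 (SD, n = 3, adjusted *p* = 1.8e-09). In PB it read 9.01, 9.10, 9.26 and 9.26 in SC and 6.33, 6.75 and 6.56 in ADE–, a score of 2.62 ± 0.21 (SD, n = 3, adjusted *p* = 1.1e-08). In BC it read 8.51, 8.84 and 8.77 in SC and 4.49, 5.89 and 5.78 in ADE–, a score of 2.99 ± 0.78 (SD, n = 3, adjusted *p* = 6.3e-05). Every ADE– array was at least 2 log2 units below every SC array of its collection. No difference between collections passed the test over all strains. PB lay 0.88 below YKO on the fitted means (95% interval 0.12 to 1.64, adjusted *p* = 1.0) and BC 0.17 below YKO (95% interval of YKO minus BC −0.89 to 1.22). The *BAS1* downtag was below the threshold in all 3 collections.

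*PHO2* encodes the homeodomain partner of Bas1, which also acts with Pho4 on phosphate genes. In PB its uptag read 9.56, 9.73, 10.22 and 9.99 in SC and 7.40, 7.57 and 8.13 in ADE–, a score of 2.29 ± 0.38 (SD, n = 3, adjusted *p* = 3.6e-06). In BC it read 9.05, 9.81 and 9.91 in SC and 6.43, 7.50 and 7.01 in ADE–, a score of 2.80 ± 0.53 (SD, n = 3, adjusted *p* = 0.0032). Its downtag, also above background in both, had scores of 2.14 in PB and 2.16 in BC. In YKO the uptag read 7.49, 8.42, 8.00 and 7.68 in SC and 6.89, 7.52 and 7.42 in ADE–, and the score of 0.42 ± 0.34 (SD, n = 3) was not called. The SC level in YKO was close to the threshold of 7.40, and its ADE– values lay around that threshold, above the YKO background mean of 5.88. The YKO minus PB difference on fitted means was −1.55 (95% interval −2.47 to −0.64, adjusted *p* = 1.0). With the replicate number as a block it was −1.44 (adjusted *p* = 0.0498). The YKO minus BC difference was −1.99 (95% interval −3.16 to −0.81, adjusted *p* = 1.0).

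Serine and one-carbon supply made up the rest of the calls. *SHM2* encodes the cytosolic serine hydroxymethyltransferase, which moves a carbon from serine to folate and yields glycine. In YKO its uptag read 10.13, 11.69, 11.23 and 11.58 in SC and 8.14, 7.68 and 6.52 in ADE–, a score of 3.72 ± 0.83 (SD, n = 3, adjusted *p* = 7.1e-06). In BC it read 9.62, 10.41 and 10.502 in SC and 5.56, 6.71 and 8.53 in ADE–, a score of 3.70 ± 1.498 (SD, n = 3, adjusted *p* = 0.0032), the widest scatter among the called strains. In PB neither tag was above the threshold in every SC array, and the strain was not tested. The strain of the mitochondrial enzyme, *SHM1*, was tested in each collection and scored −0.42 in YKO, 0.03 in PB and −0.47 in BC, with no call.

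*SER1* and *SER2* encode the transaminase and the phosphatase that complete serine synthesis from a glycolytic intermediate. Of 6 genes listed for serine and glycine synthesis, 4 were tested in YKO, 5 in PB and 3 in BC. Calls numbered 1, 2 and 0. *SER3*, *SER33* and *AGX1*, tested in each collection, scored from −0.37 to 0.61 and were not called. The *SER2* uptag read 8.69, 9.12, 9.27 and 8.68 in the YKO SC arrays and 6.43, 7.13 and 6.27 in ADE–, a score of 2.48 ± 0.45 (SD, n = 3, adjusted *p* = 0.0085). In PB it read 9.55, 10.19, 10.08 and 10.33 in SC and 7.16, 7.70 and 7.07 in ADE–, a score of 2.98 ± 0.34 (SD, n = 3, adjusted *p* = 3.1e-08). The YKO minus PB difference on fitted means was −0.40 (95% interval −1.44 to 0.64). The YKO call was lost in 3 of the 7 fits that left out 1 array (ADE– arrays 1 and 3, SC array 3), with adjusted *p* up to 0.14. The PB *SER1* uptag read 8.95, 10.004, 9.89 and 9.98 in SC and 6.74, 7.74 and 7.72 in ADE–, a score of 2.21 ± 0.57 (SD, n = 3, adjusted *p* = 0.047). All 3 ADE– arrays were more than 1 log2 unit lower than any SC array, but the call was lost in 6 of 7 fits without 1 array (the exception leaves out SC array 1), with adjusted *p* from 0.11 to 0.95.

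The YKO strains of *SER1* and *ADE3* had lower tags without adenine too, but SC levels that straddled the threshold kept them from the test. *ADE3* encodes the cytosolic trifunctional enzyme that makes formyl-tetrahydrofolate. Its YKO downtag read 6.92, 7.26, 8.86 and 8.44 in SC and 5.501, 5.67 and 5.59 in ADE–. The *SER1* downtag read 7.49, 7.10, 7.60 and 8.33 in SC and 5.09, 6.17 and 5.06 in ADE–. Where presence was taken from the mean of the SC arrays both were tested and called, with scores of 2.26 (adjusted *p* = 0.0025) and 2.45 (adjusted *p* = 0.00012). In BC neither strain was above background, and in PB *ADE3* was not tested either.

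*MTD1*, a cytosolic NAD-dependent methylenetetrahydrofolate dehydrogenase, gave a smaller drop, which was steady in YKO. In YKO its uptag read 9.10, 9.05, 9.05 and 8.94 in SC and 8.27, 8.13 and 8.26 in ADE–, a score of 0.79 ± 0.08 (SD, n = 3, adjusted *p* = 0.11). Its downtag read 9.998, 10.01, 9.83 and 9.60 in SC and 8.64, 8.504 and 8.65 in ADE–. The SC and ADE– arrays of both tags were clearly apart, and the mean of the tags was called (score 1.03, adjusted *p* = 5.9e-05). The PB and BC scores, 0.76 ± 0.65 and 0.59 ± 0.29 (SD, n = 3), were not called. Of the 13 one-carbon genes listed, 10 were tested in YKO, 9 in PB and 8 in BC, with *SHM2* the one call in YKO and in BC and 0 in PB. At an unadjusted *p* under 0.05 in the limma fit there were 2 members in YKO and 2 in BC (*SHM2* and *MTD1* in both) and 1 in PB (*MTD1*). The glycine cleavage genes *GCV1*, *GCV2* and *GCV3*, which release one-carbon units from glycine in mitochondria, scored between −0.04 and 0.17 wherever tested, and *MIS1*, the mitochondrial counterpart of *ADE3*, between −0.13 and 0.04.

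The other 7 of the 12 lists gave no call in any collection. Calls made up 0.16% of all tested strains in YKO, 0.121% in PB and 0.075% in BC, so 0 calls among these lists is near those shares. The 7 lists cover purine salvage and uptake, phosphoribosyl pyrophosphate and pentose phosphates, histidine synthesis, glutamine and ammonium supply, thiamine and pyridoxal, phosphate regulation and general amino acid control. Of their strains 61 were tested in YKO, with scores from −0.89 to 0.67, 50 in PB (−0.37 to 0.49) and 50 in BC (−0.61 to 0.86). In the limma fit 1 of the YKO strains, *PRS3*, had an unadjusted *p* under 0.05 (score 0.67 ± 0.90, SD, n = 3), against 0 in PB and 0 in BC. Over all tested strains this held for 2.54% in YKO, 0.705% in PB and 1.57% in BC. *PRS3* encodes a subunit of phosphoribosyl pyrophosphate synthetase. *APT1*, the adenine phosphoribosyltransferase of salvage, scored −0.55 in YKO, −0.09 in PB and 0.24 in BC. *HIS7*, whose histidine step releases a purine intermediate, scored 0.46, 0.49 and 0.86, none of them called.

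No strain had a gain past the test against SC in any collection, and at an unadjusted *p* under 0.05 with a score of −1 or less limma gave 2 in YKO, 0 in PB and 1 in BC (*MAG2*, score −1.07, singled out after its value was seen). The 2 in YKO were *HOM6* and *AMD1*. *HOM6* encodes homoserine dehydrogenase, which leads to threonine and methionine. Its YKO uptag read 7.69, 8.97, 9.30 and 9.14 in SC and 10.30, 11.38 and 10.93 in ADE–. All ADE– arrays were above all SC arrays, with a score of −1.88 ± 0.54 (SD, n = 3, adjusted *p* = 0.32). With the replicate number as a block the score, there a fitted mean rather than a median, was −2.22 (limma adjusted *p* = 0.0010). *HOM6* and *AMD1* then became 2 called gains. In PB the *HOM6* downtag read 8.83, 8.80, 9.16 and 9.46 in SC and 9.83, 9.68 and 9.82 in ADE–, a score of −0.83 ± 0.09 (SD, n = 3) that was not called.

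The same strains stood out when ADE– was set against other dropout media in place of SC. The reference was the mean of the arginine, lysine, methionine, tryptophan, glutamine and glycine dropouts of the same collection. It again gave 7 defects in YKO (0.16%), 5 in PB (0.121%) and 3 in BC (0.075%), in the strains named above. The *ADE1* score was 4.36 and the *ADE6* score 4.35 in YKO, *SER2* led in PB with 3.12, and *SHM2* in BC with 3.81. The ADE– arrays enter both comparisons, so the second is not a repeat of the first.

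This reference also gave 4 gains in YKO (0.0917%). They were *HOM6* (−2.20, adjusted *p* = 0.018), *GCN4* (−1.50, adjusted *p* = 0.0031), *AMD1* (−1.17, adjusted *p* = 0.019) and *ARO2* (−1.10, adjusted *p* = 0.018). *GCN4* encodes the activator of amino acid synthesis genes and *ARO2* chorismate synthase. Against SC the *GCN4* score was 0.05, so its ADE– level was near that in SC and above that in the other dropouts. A gain against this reference can come from a lower signal in the reference media as well as a higher one in ADE–. None of the 4 was a called gain against SC in the main fit. Which of these holds for *ARO2* was not tested.

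Few differences between collections passed a test. No strain of 3697 shared by YKO and PB did (0%, 32 at an unadjusted *p* under 0.05, limma), and none of 3677 shared by PB and BC (0%, 36 at an unadjusted *p* under 0.05, limma). With the replicate number as a block, 3 strains differed between YKO and PB: *PHO2*, *ADE12* and *HAL1*. The *ADE17* score was higher in YKO than in PB by 0.77 on fitted means (95% interval 0.20 to 1.34, adjusted *p* = 1.0). The *SHM2* score was higher in YKO than in BC by 0.46 (95% interval −1.02 to 1.95), an interval that leaves room for a difference in either direction.

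Across the other media of the series, the called strains fell into separate patterns. These comparisons use the same SC arrays as ADE–, so their values are set side by side only. Minimal medium held no adenine in any collection, but its recipe differed. For PB and BC it was yeast nitrogen base with glucose, and for YKO a synthetic minimal medium that also held histidine, leucine, lysine, methionine and uracil per the labels, so the YKO values were obtained in another medium. These media gave defects in 1.17% of the tested strains in YKO, 4.59% in PB and 0.6% in BC. There the YKO strains of *ADE6*, *ADE4* and *ADE1* scored 3.19, 3.13 and 2.48 and were called. *BAS1* was called in the minimal medium of each collection, with scores of 2.22 in YKO, 2.90 in PB and 3.34 in BC. *SHM2* (2.53 in YKO, 4.01 in BC), *SER2* (2.71 in YKO, 3.12 in PB) and *SER1* (3.33 in PB) were called there as well.

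Histidine dropout shared *BAS1* with ADE–. It gave 92 defects in PB (2.24%) and 2 in BC (0.05%), with *BAS1* scores of 2.21 ± 0.83 and 1.91 ± 0.93 (SD, n = 3). Serine dropout gave 2 defects in PB (0.0486%), *SER1* at 3.40 ± 2.01 and *SER2* at 2.43 ± 1.02 (SD, n = 3). In YKO the *SER2* strain scored 2.07 ± 1.33 without serine (SD, n = 3, adjusted *p* = 0.64), and it was called without tryptophan (2.14 ± 1.24, SD, n = 3), a medium with 17 defects (0.39%).

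The *PHO2*, *ADE17* and *ADE12* strains called in ADE– reached a score of 1 with an adjusted *p* under 0.05 in no other medium, but some passed the adjusted *p* alone. The *PHO2* scores in the 12 other media ran from −0.57 to 0.85 in PB and from −0.30 to 0.76 in BC, with 0.85 (adjusted *p* = 0.032, limma) and 0.58 (adjusted *p* = 0.97) in minimal medium. *ADE12* scored 0.61 in PB minimal medium (adjusted *p* = 0.032) and 0.62 in PB histidine dropout (adjusted *p* = 0.0036). *ADE17* scored 0.80 in YKO minimal medium (adjusted *p* = 0.11) and 0.98 in BC minimal medium (adjusted *p* = 0.015), where it was not called in ADE– either. Whether these differ from the ADE– scores was not tested. *ADE12* scored −0.55 in YKO and −0.46 in BC minimal medium. The *ADE4* strain of BC, which was not called in ADE–, scored 0.03 in minimal medium. The *AMD1* strain of YKO, also uncalled in ADE–, scored −1.54 in the YKO minimal medium (limma adjusted *p* = 0.0025). The *AMD1* strains of PB scored −0.77 and −0.43 in minimal medium and the tested one of BC 0.19.

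**Figure D4:**
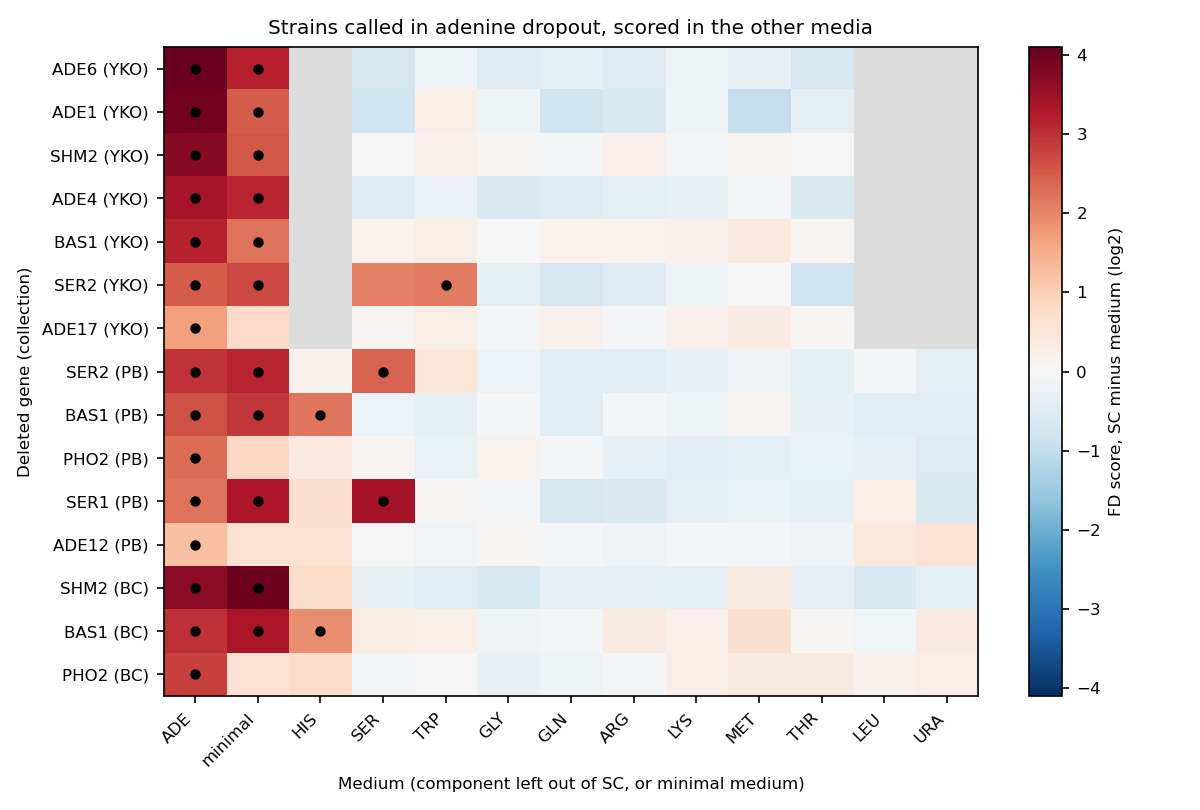
FD score (log2, colour) of the 15 strains called in ADE– (rows, with their collection) in each medium (columns), with a dot where the strain was called and grey where the medium was not assayed in that collection. The minimal medium column, whose recipe for YKO differs from that for PB and BC, has dots at scores of 2.22 to 4.01, and *PHO2*, *ADE17* and *ADE12* have a dot under ADE– alone, with scores up to 0.85 elsewhere.

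Where tested, strains of genes next to the called ones were not called. No neighbour of *ADE12* or *SER1* was tested in PB, and some called genes had a tested neighbour on 1 side only. Neighbours were taken from the RefSeq gene order of the R64 assembly. Of 19 tested strain and collection pairs for genes adjacent to a called gene, 0 were called, with scores from −0.43 to 0.45. Over all tested strains 0.16% were called in YKO, 0.121% in PB and 0.075% in BC, so a count of 0 is near those shares.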

How the data were processed

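Genomic DNA of the pools was hybridised to tag arrays. The authors deposited log2 intensities per tag, after masking array artefacts and median normalization of uptags and downtags. The study's pipeline also corrected replicates for batch with ComBat, and whether the deposited values include that step is not given in the sources used here. Each comparison lay within 1 normalization set of the labels. Arrays were median-aligned within a collection, and their lowest values ran from 3.93 to 5.80. Depth has no meaning here, and the number of arrays limits precision.

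A mixture of 2 Gaussians was fitted to the SC tags of each collection, and a tag was present if above the threshold (posterior 0.5) in every SC array. A strain was tested on its present tag with the lowest variation, which is wider than requiring all tags. This rule was chosen with earlier results of these data known, because requiring all tags removes most purine strains. limma 3.58.1 in R 4.3.3 was fitted over 34 (YKO), 44 (PB) and 40 (BC) arrays with 1 mean per condition, and called at a score of 1 and an adjusted p of 0.05 (Benjamini–Hochberg). Scores use medians, while scores under the replicate block and differences between collections use fitted means. The scripts were tested on simulated data.

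Named strains are tested members of the 12 gene lists, the called strains with the largest scores, and those called in several collections or differing between them. *HOM6* against SC, *ARO2* and the uncalled high scores were picked after their values were seen. The members and lists were chosen with earlier results of these data known. The methods call the replicates biological, and the labels describe aliquots of a pool grown in duplicate wells. The p-values measure the spread between these arrays, which may be partly technical. Deviations of same-numbered SC and ADE– arrays correlated at 0.44 to 0.75 in YKO and 0.60 to 0.87 in PB over 3 pairs each, so the numbers were taken as pairing those arrays. The main fits, and the calls from them, did not use this pairing. It entered only as the replicate block, an alternative. Starting-pool arrays were not used, and 2 BC arrays with contradictory labels were left out. Alternatives covered presence, tag choice, normalization, arrays in the fit, the block and left-out arrays. Symbols were matched for 4630 of 4993 genes.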

Additional observations from a re-analysis of the deposited data

Results flagged for a closer look

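Of 35 groups of 4 SC arrays examined for the named strains, 3 held an array that stood apart by Dixon's 95% critical value for the gap, and chance gives about 1 in 20. The *SER1* uptag of PB read 8.95 in SC array 1, with the next array at 9.89. The *MET12* tag of PB read 10.12 in SC array 1, with the next at 9.63. The *FAU1* tag of YKO read 10.30 in SC array 2, with the next at 10.12.

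The *ADE4* response differed between collections by a test of the difference itself. The YKO score exceeded the BC score by 3.44 on fitted means (limma, adjusted *p* = 0.00021), with means of 3.22 and −0.22.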

How the results depend on the processing

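With every tag of a strain required to be present, the defects numbered 4 in YKO, 2 in PB and 1 in BC, against SC and against the other dropouts alike, and the YKO and BC difference had 0 strains. With downtags only they numbered 4, 0 and 0 in both. With only SC and ADE– arrays in the fit, BC had 0 defects (*BAS1* adjusted *p* = 0.051 by limma) and YKO 1 gain. Presence from the mean over all arrays gave BC 2 gains.

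With the replicate block, YKO had 2 gains, and the differences numbered 3 between YKO and PB, 2 between YKO and BC (*ADE4* 3.72, limma adjusted *p* = 1.4e-05, and YHR131C 0.93, adjusted *p* = 0.042) and 1 between PB and BC (*ADE12* 1.34, adjusted *p* = 0.010). The numbers pair only 2 BC arrays, at correlations of 0.58 and 0.76. The *ADE16* score in PB turned to 0.00087 under the block, where scores are fitted means. Without the block its fitted mean was −0.066 and its median score −0.26.

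Leaving out 1 array gave 6 to 8 defects in YKO, 4 to 5 in PB and 1 to 3 in BC, where 1 was left without ADE– array 1 or SC array 3. The uncalled scores that changed sign ranged from −0.27 to 0.40 for *ADE16* in YKO, −0.28 to 0.025 for *ADE16* in BC, −0.34 to 0.021 for *ADE12* in BC and −0.39 to 0.054 for *ADE4* in BC. Without the arrays numbered 2, chosen after seeing the data, *ADE16* in YKO was −0.54 and *ADE12* in BC 0.021. The cause was not tested. Counting each strain under each alternative once, a call was lost in 30 cases and gained in 5. In 459 cases the value kept its direction and side of the threshold. Strains that an alternative left untested are not in these counts, so calls lost in that way come on top.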

Other observations

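A few strains outside the lists scored high without passing the test. In YKO *CCM1* scored 1.34 ± 0.32 (SD, n = 3; limma adjusted *p* = 0.46), with every ADE– array below every SC array, and *APS3* 1.27 ± 0.60 (SD, n = 3). In BC *RPB9* scored 1.41 ± 0.78 and *CDC26* 1.42 ± 1.00 (SD, n = 3), and the arrays of both overlapped. These strains were picked after their values were seen.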
